A study of Mus musculus with 2 samples.

Results

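The cells described here are Cpa3-high barcodes with little Mcpt1 and Mcpt2, taken from c-Kit+ mouse leukemia cells profiled by single-cell RNA sequencing. Cpa3 encodes carboxypeptidase A3, a granule protease, and Mcpt1 and Mcpt2 encode the mast cell proteases 1 and 2. Among barcodes with at least 500 detected genes and at most 10% mitochondrial UMIs (unique molecular identifiers, each a captured transcript), a member had at least 3 Cpa3 UMIs per 10000, at least 2 Cpa3 UMIs, and fewer than 10 UMIs per 10000 of Mcpt1 and Mcpt2 together. In all, 1488 of 14292 kept barcodes met this rule, 473 of 6886 in the Usp18+/f-labelled library and 1015 of 7406 in the Usp18+/Δ-labelled library. They were compared with the 12369 barcodes that held under 3 Cpa3 UMIs per 10000, 6205 and 6164 in the same order, called comparison barcodes below. Paired values are given throughout for the Usp18+/f-labelled library first and the Usp18+/Δ-labelled library second. The measured levels of Cpa3, Mcpt1 and Mcpt2 were what the members were chosen by, so the levels of these 3 genes describe the choice, and all other differences between members and comparison barcodes are given as descriptions without a test.

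Both groups came from AE9a leukemia, an acute myeloid leukemia made by putting a retrovirus for AML1-ETO9a and GFP into hematopoietic cells of Usp18+/f mice and transplanting them. Per the labels, one group of recipients had received oil (Usp18+/f) and the other tamoxifen (Usp18+/Δ), and GFP+ Lin- c-Kit+ splenocytes were sorted on day 3 counted from the first injection. Before the injections the cells of both groups were thus Usp18+/f. Cells of 3 mice were pooled before capture, so each group is 1 library, and neither the spread between mice nor the effect of the agent apart from the deletion can be measured. Usp18 encodes the protease that removes ISG15 from proteins and restrains type I interferon signaling. The library contrast asks how leukemia cells differ after deletion of 1 Usp18 allele.

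Carboxypeptidase A3, chymases, tryptases, histamine and serglycin fill the secretory granules of mast cells, and basophils and their shared progenitors carry part of the same set. These cells bind IgE through the high-affinity receptor FcεRI, depend on KIT or on the interleukin-3 receptor family for growth and survival, and are built by transcription factors such as GATA2 and MITF. In the mouse, Mcpt1 and Mcpt2 belong to the chymases of mucosal mast cells, whereas Cpa3 already appears in early progenitors of the lineage.

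The targeted gene went against its label at the level of summed mRNA. Usp18 stood at 4.2 CPM (2.29 to 7.04) and 28.6 CPM (24.5 to 33.1) in members and at 5.68 CPM (5.08 to 6.32) and 22.9 CPM (21.6 to 24.1) in comparison barcodes, where CPM is the UMIs of a gene per 1000000 UMIs summed over the barcodes of a class and the brackets are exact Poisson 95% intervals. The log2 ratio of the Usp18+/Δ-labelled library over the Usp18+/f-labelled library was 2.77 (1.98 to 3.67) in members and 2.01 (1.84 to 2.19) in comparison barcodes, with exact conditional 95% intervals. Usp18 is itself induced by interferon, and 3′ counts give no information on which allele a transcript came from or whether it holds the deleted part, so the labels are quoted as labels below. All intervals here cover counting error only.

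The deposited libraries held 7281 and 7833 barcodes and 63690481 and 65146263 UMIs. Members were shallower than comparison barcodes, with medians of 6454 and 5382 UMIs against 8992 and 8688.5, and with 2394 and 2140 detected genes against 2989 and 2923. Their median mitochondrial share was 6.75% and 6.37%, against 6.29% and 6.46%. Only 15 barcode sequences occurred in both libraries. Because depth moved with membership, values were also taken over barcodes of 4000 to 8000 UMIs, an alternative chosen after seeing the data. These are given beside some of the results only, and ratios printed without them are not set against depth here.

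The working name of these cells rests on Cpa3, Csf2rb2 and Hbb-bt, and the data bore this out only in part. Csf2rb2 was higher in members in both libraries. Hbb-bt, an adult beta globin gene, stood at 739 CPM (710.2 to 769) and 890.0 CPM (867 to 914) in members and at 534 CPM (528 to 539.9) and 688 CPM (681 to 695) in comparison barcodes. Its log2 ratio was 0.47 (0.41 to 0.53) and 0.37 (0.33 to 0.41), and a single barcode held 8.48% and 7.91% of the members' Hbb-bt UMIs. Over barcodes of 4000 to 8000 UMIs the Hbb-bt ratio was 0.10 (0.018 to 0.18) and -0.60 (-0.67 to -0.54), and among the Usp18+/f-labelled library's members with no Mcpt1 or Mcpt2 UMI it was -0.072. At 4000 to 8000 UMIs summed Hbb-bt was thus lower in members of the Usp18+/Δ-labelled library and close to the comparison level in the other library. With each barcode thinned to 3000 UMIs, however, more members than comparison barcodes held an Hbb-bt UMI in both libraries. The shares were 38.6% and 36.3% in members against 32.2% and 30.0% in comparison barcodes. Summed levels and shares of barcodes are different measures, so no single direction is given for Hbb-bt at like depth. Hbb-bt is near-identical to Hbb-bs, and reads may be split between them. No cell type name is given, because the comparison barcodes carried several mast cell and basophil genes as well. Ms4a2, the beta chain of FcεRI, stood at 497 and 481 CPM there, Hdc, the histamine-forming enzyme, at 346 and 341 CPM, and Il1rl1, the interleukin-33 receptor, at 536 and 513 CPM.

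Defining markers of neutrophils, lymphocytes and dendritic cells were scarce, whereas erythroid transcripts were not. Members held no UMI of Mpo or Elane, the azurophil granule enzymes of neutrophils and their precursors, and 0 and 4 UMIs of Lyz2, lysozyme of macrophages and granulocytes. The exact 95% upper limits of Mpo in members were 1.11 and 0.596 CPM. The neutrophil list summed to 14.4 and 15.7 CPM in members against 10.6 and 37.1 CPM in comparison barcodes, with 10 and 8 of 14 genes at 0 in members. The megakaryocyte list summed to 24 and 27 CPM against 14.4 and 14.8 CPM, with 7 and 7 of 11 genes at 0, and the lymphoid list to 13.2 and 46.3 CPM against 6.86 and 14 CPM, with 13 and 11 of 14 at 0. The eosinophil, dendritic and endothelial lists summed to between 3.07 and 10.8 CPM in members. The monocyte and macrophage list summed to 43.5 and 57.3 CPM in members against 24.7 and 31.3 CPM, of which Ccr2, a chemokine receptor also found on mast cell progenitors, gave 42.3 and 50.4 CPM in members, and 9 and 5 of its 14 genes were at 0. Erythroid transcripts were abundant in every class, and the erythroid list summed to 8819.8 and 8555 CPM in members against 8403 and 8451 CPM. Kit mRNA, the gene of the sorted surface protein, was present at 155 and 215 CPM in members. The GFP of the retrovirus was not analysed here.

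Promoters of granule and receptor genes of a kind that the GATA factors are known to bind are shown first. All 5 hold a GATA word, so they do not stand for the genes highest in members as a set. Ms4a2 was higher in members by less than 1.5-fold, at log2 ratios of 0.54 and 0.54. Sequences are from RefSeq on GRCm38.p6, from 250 bases before to 50 bases after the annotated start, written 5′ to 3′ on the gene's strand. In the first 5, capitals mark GATA words on either strand, which are the letters GATA with A or T before them and A or G after them. Cpa3 was used by the rule, Csf2rb2 encodes a beta subunit of the interleukin-3 receptor, Cma1 the chymase MCPT5, Slc18a2 the vesicular monoamine transporter that loads histamine, and Ms4a2 the FcεRI beta chain.
Cpa3 promoter, chr3:20242132-20242431, minus strand: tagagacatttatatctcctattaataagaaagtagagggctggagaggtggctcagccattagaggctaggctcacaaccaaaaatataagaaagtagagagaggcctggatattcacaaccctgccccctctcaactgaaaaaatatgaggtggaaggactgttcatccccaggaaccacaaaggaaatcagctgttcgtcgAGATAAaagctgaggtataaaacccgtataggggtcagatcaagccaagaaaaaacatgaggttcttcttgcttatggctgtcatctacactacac
Csf2rb2 promoter, chr15:78305672-78305971, minus strand: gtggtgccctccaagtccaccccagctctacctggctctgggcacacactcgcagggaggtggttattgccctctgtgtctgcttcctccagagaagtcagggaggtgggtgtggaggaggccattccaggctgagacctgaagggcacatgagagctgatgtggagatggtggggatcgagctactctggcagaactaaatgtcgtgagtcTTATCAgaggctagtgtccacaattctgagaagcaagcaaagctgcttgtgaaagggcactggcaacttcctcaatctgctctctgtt
Cma1 promoter, chr14:55944626-55944925, minus strand: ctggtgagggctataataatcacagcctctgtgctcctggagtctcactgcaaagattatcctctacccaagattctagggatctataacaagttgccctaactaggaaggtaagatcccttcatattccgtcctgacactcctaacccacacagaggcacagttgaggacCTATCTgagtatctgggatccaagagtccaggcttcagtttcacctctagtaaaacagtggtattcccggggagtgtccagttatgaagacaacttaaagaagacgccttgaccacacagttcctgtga
Slc18a2 promoter, chr19:59260628-59260927, plus strand: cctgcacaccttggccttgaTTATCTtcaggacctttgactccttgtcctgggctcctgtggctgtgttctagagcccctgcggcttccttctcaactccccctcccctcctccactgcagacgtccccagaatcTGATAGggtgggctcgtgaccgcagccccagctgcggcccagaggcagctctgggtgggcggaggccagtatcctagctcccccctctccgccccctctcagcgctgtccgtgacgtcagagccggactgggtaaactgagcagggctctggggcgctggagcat
Ms4a2 promoter, chr19:11623670-11623969, minus strand: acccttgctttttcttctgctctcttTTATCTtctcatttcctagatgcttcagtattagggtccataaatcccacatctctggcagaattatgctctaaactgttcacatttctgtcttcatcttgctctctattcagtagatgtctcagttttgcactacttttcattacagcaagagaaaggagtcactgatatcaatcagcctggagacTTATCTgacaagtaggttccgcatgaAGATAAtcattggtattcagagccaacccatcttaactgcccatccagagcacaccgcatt

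Counted from the start, words began at -46 in Cpa3, -38 in Csf2rb2, -79 in Cma1, -230 and -115 in Slc18a2, and -224, -37 and -11 in Ms4a2. A GATA word was present in 12 of 19 promoters of the mast cell list (63.2%; 14 of 16 genes had a RefSeq entry), in 8 of 18 promoters of the 15 genes highest in members (44.4%; 12 genes had an entry) and in 29.8% of all 32851 promoters of that length. Among all genes of at least 20 CPM it was present in 18.2% of promoters, and among the genes higher in members in 73 of 273 (26.7%). The E-box words CANGTG with T or C at N, which MITF can bind, were in 2 of 19 promoters of the mast cell list (10.5%) against 20.4% of all promoters. These matches are descriptions of letters and not of binding, and the mast cell list was chosen with earlier results of these data known.

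The next 2 promoters belong to genes that were lower in members or that differed between the libraries. In Mki67, a proliferation marker, capitals mark the words TTNGAA with T or C at N of the cell cycle genes homology region (CHR) on either strand. In Isg15, a ubiquitin-like interferon-induced protein, they mark overlapping matches to GAAANNGAAA on either strand, the core of the interferon-stimulated response element (ISRE).
Mki67 promoter, chr7:135716330-135716629, minus strand: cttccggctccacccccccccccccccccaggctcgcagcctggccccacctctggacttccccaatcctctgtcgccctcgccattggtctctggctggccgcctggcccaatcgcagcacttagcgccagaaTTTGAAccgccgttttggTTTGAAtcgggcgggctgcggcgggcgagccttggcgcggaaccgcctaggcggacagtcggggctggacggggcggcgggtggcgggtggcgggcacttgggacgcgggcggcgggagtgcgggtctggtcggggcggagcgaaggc
Isg15 promoter, chr4:156200769-156201068, minus strand: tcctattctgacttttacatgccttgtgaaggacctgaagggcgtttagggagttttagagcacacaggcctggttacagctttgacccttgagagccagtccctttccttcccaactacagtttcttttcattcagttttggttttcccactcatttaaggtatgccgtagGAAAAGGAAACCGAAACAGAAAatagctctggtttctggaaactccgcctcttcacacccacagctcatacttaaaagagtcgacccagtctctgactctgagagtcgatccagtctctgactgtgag

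A CHR word was present in 62 of 143 promoters of genes lower in members (43.4%), in 38 of 51 promoters of the G2/M list (74.5%), in 6 of 32 of the S phase list (18.8%) and in 19.2% of all promoters. It was in 14.4% of promoters of all genes of at least 20 CPM and in 15.4% of those of genes higher in members, but also in 7 of 19 promoters of the mast cell list (36.8%), so a high share was not particular to genes lower in members. An ISRE core was present in 14 of 37 promoters of the list of interferon-stimulated genes (37.8%), in 13 of 273 promoters of genes higher in members (4.76%) and in 3.44% of all promoters.

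In the Usp18+/f-labelled library, members were 6.87% (6.28 to 7.49) of kept barcodes, and 13.7% (12.9 to 14.5) in the Usp18+/Δ-labelled library, given with exact Clopper-Pearson 95% intervals. The ratio of these shares was 2.0-fold (1.8 to 2.21), or 0.997 (0.85 to 1.15) on the log2 scale, with a score interval. Barcodes with as much Cpa3 but Mcpt1 plus Mcpt2 at 10 or more per 10000, called Mcpt-high barcodes below, were 2.56% (2.2 to 2.96) and 2.51% (2.17 to 2.89), or on the log2 scale a ratio of -0.025 (-0.32 to 0.27). The share of members was thus larger in the Usp18+/Δ-labelled library, whereas that of the Mcpt-high barcodes was similar, at 176 and 186 barcodes. With 1 library per group this compares the libraries and not the conditions.

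The larger share was present at every level of Cpa3 and was widest at the top. Members with 3 to under 6 Cpa3 UMIs per 10000 were 2.98% (2.59 to 3.41) and 4.58% (4.11 to 5.08) of kept barcodes, or on the log2 scale a ratio of 0.62 (0.38 to 0.87). Those with 6 to under 12 were 2.28% (1.94 to 2.66) and 3.85% (3.42 to 4.31), or on the log2 scale a ratio of 0.76 (0.48 to 1.03). Those with 12 or more were 1.61% (1.33 to 1.94) and 5.28% (4.78 to 5.81), or on the log2 scale a ratio of 1.71 (1.41 to 2.01) or 3.28-fold. The top bin thus held 23.5% of members in the Usp18+/f-labelled library and 38.5% in the Usp18+/Δ-labelled library. The bins were cut on the Cpa3 value that the rule used, so these ratios are descriptions.

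The difference in share was smaller in barcodes of like depth. After every barcode had been thinned to 3000 UMIs and the rule applied again, 307 of 6428 (4.78%) and 640 of 7053 (9.07%) barcodes were members, a log2 ratio of 0.93 (0.74 to 1.12). Among barcodes of 4000 to 8000 UMIs the log2 ratio was 0.51 (0.32 to 0.70). With at most 5% mitochondrial UMIs, which left only 43 and 153 members, the ratio was instead larger than the main value, as given below. The median depth fell with Cpa3, from 7355 and 6714 UMIs in the low bin to 5013 and 4062 in the high bin, and the part of depth in the shares was not tested further.

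Near the limits of the rule, 159 and 185 barcodes held 2 to under 3 Cpa3 UMIs per 10000 with at least 2 Cpa3 UMIs, and 101 and 153 members held 3 to under 4. Of barcodes with enough Cpa3, 15 and 24 lay just under the Mcpt limit, at 8 to under 10, and 18 and 30 just above it, at 10 to under 12. Members therefore form a range cut from a continuous measure. Their Cpa3 had a median of 7.02 and 8.72 per 10000 and reached 115 and 287, and 59.4% and 70.4% of them held no Mcpt1 or Mcpt2 UMI. Comparison barcodes with at least 1 Cpa3 UMI made up 17.3% and 20.7%, as the rule allows, and how much of that is free RNA was not tested.

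**Figure D1:**
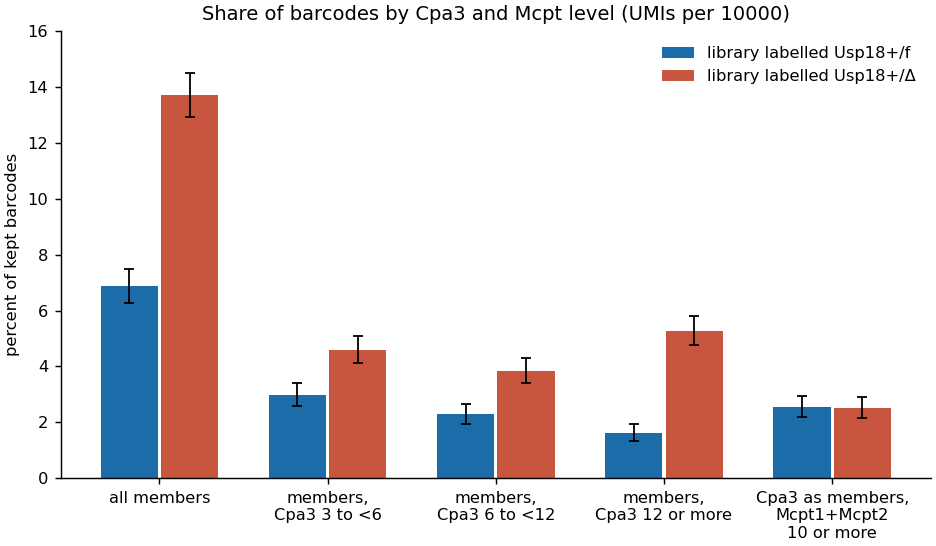
Shares of kept barcodes (percent, exact 95% intervals) in each library for members, their bins of Cpa3 per 10000 UMIs and Mcpt-high barcodes. Members stand at 6.87% and 13.7%, the top Cpa3 bin shows the widest gap (1.61% and 5.28%), and the Mcpt-high shares are close (2.56% and 2.51%).

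Members were next compared with comparison barcodes of the same library, gene by gene. Of 6048 genes that averaged 20 CPM or more over the 4 sums, 226 were at least 1.5-fold higher in members in both libraries (3.74%) and 165 at least 1.5-fold lower (2.73%), and the median log2 ratio over all of them was -0.013 and -0.021. The genes that were higher included Fc receptors and their adaptors, granule proteins and cytokine receptors, and the genes that were lower included cell cycle genes. Genes entered by the mean of the 4 sums, so a gene low in comparison barcodes could enter through members alone, and counts over listed genes that entered are descriptions. Among barcodes of 4000 to 8000 UMIs 113 genes were higher and 129 lower, and after thinning to 3000 UMIs 359 and 370. The 15 highest by the smaller of the 2 ratios, leaving out the genes of the rule, were Fcgr3, Slc18a2, Lat2, Csf2rb2, Cma1, Rgs1, Serpinb1a, Slc7a8, Fes, Ypel3, Fcer1a, Pik3ip1, Rnase6, Csrp3 and Limd2. Of these, Fcgr3, Lat2, Fes, Pik3ip1 and Limd2 were under 20 CPM in comparison barcodes of both libraries. They entered through members alone, so their rank is partly set by the limit.

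Some genes of Fc receptors and of the signaling beneath them were higher in members. Fcgr3 (ENSMUSG00000059498, chromosome 1, 171051174 to 171064935 of mm10), the low-affinity IgG receptor III, stood at 37.5 CPM (31.2 to 44.6) and 83.3 CPM (76.3 to 90.8) in members and at 7.07 CPM (6.4 to 7.78) and 11.7 CPM (10.8 to 12.6) in comparison barcodes. Its log2 ratio was 2.41 (2.11 to 2.70) and 2.83 (2.66 to 2.998), and 1.93 (1.54 to 2.31) and 1.99 (1.76 to 2.22) at 4000 to 8000 UMIs. Fcgr3 was thus at least 1.5-fold higher in members of both libraries under either choice, though like Lat2 it reached the mean of 20 CPM through members alone. Lat2 (ENSMUSG00000040751, chromosome 5, 134600022 to 134615025), an adaptor of activated mast cells and B cells, stood at 27.3 CPM (22 to 33.5) and 50.9 CPM (45.4 to 56.8) against 6.71 CPM (6.06 to 7.4) and 7.82 CPM (7.11 to 8.59), a log2 ratio of 2.02 (1.68 to 2.36) and 2.70 (2.49 to 2.91). Fcer1a, the IgE-binding chain of FcεRI, stood at 443 CPM (421 to 466) and 753 CPM (732 to 775) against 149 CPM (146 to 152) and 194 CPM (191 to 198), a log2 ratio of 1.57 (1.49 to 1.65) and 1.95 (1.90 to 2.003). Of the other FcεRI chains, Ms4a2 did not pass 1.5-fold, with a log2 ratio of 0.54 and 0.54. Fcer1g, the shared gamma chain, was near 0 in every class and under the 20 CPM limit. It stood at 0 and 1.45 CPM in members, 0.72 and 1.96 CPM in comparison barcodes and 0 and 1.25 CPM in Mcpt-high barcodes.

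Of 16 genes listed for FcεRI signaling, 12 averaged 20 CPM or more over the 4 sums. Of these, 3 were at least 1.5-fold higher in both libraries (3.74% over all genes), none was lower (2.73%), and the median was 0.36 and 0.52 against -0.013 and -0.021 over all genes. Lat2 was among those that passed through members alone, so the signs over the 12 are partly set by the limit. Fcgr2b, the inhibitory IgG receptor, had log2 ratios of 1.09 and 1.37, and Lat, the adaptor first known from T cells, of 1.23 and 1.49. Rgs1, a brake on G protein signaling, stood at 45 and 134 CPM against 13.5 and 24 CPM, a log2 ratio of 1.74 (1.47 to 1.99) and 2.48 (2.35 to 2.61). In the Usp18+/Δ-labelled library 1 barcode held 8.69% of the Rgs1 UMIs of members.

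Granule genes were higher in members but only in part. Cma1 (ENSMUSG00000022225, chromosome 14, 55941451 to 55944675) stood at 1301 CPM (1263 to 1341) and 1994 CPM (1959 to 2029) in members against 341 CPM (337 to 346) and 285 CPM (281 to 289), a log2 ratio of 1.93 (1.88 to 1.98) and 2.81 (2.77 to 2.84). At 4000 to 8000 UMIs the Cma1 ratio was 1.15 (1.08 to 1.21) and 1.96 (1.91 to 2.01), so it kept its direction and was smaller in both libraries. Slc18a2 (ENSMUSG00000025094, chromosome 19, 59260896 to 59296012) stood at 91.1 CPM (81.2 to 102) and 115 CPM (107 to 124) against 21.3 CPM (20.1 to 22.5) and 23.9 CPM (22.6 to 25.2), a log2 ratio of 2.10 (1.91 to 2.28) and 2.27 (2.14 to 2.41) and, at 4000 to 8000 UMIs, of 1.44 (1.20 to 1.69) and 1.57 (1.38 to 1.76). Histamine-related and storage genes were higher by less. Hdc stood at 537 and 669 CPM against 346 and 341 CPM, a log2 ratio of 0.63 and 0.97, and Srgn, the serglycin core of the granule, had ratios of 0.52 and 0.61. Serpinb1a, an inhibitor of neutrophil proteases, stood at 176 and 205 CPM against 53.4 and 20.7 CPM, but 1 barcode held 9.35% of its member UMIs in the Usp18+/f-labelled library, and its log2 ratio of 1.72 (1.59 to 1.85) and 3.31 (3.19 to 3.42) became 0.33 (0.15 to 0.50) and 1.86 (1.69 to 2.04) at 4000 to 8000 UMIs. Of 22 granule and lysosome genes, 17 reached 20 CPM, 4 were higher (3.74% over all genes), none was lower (2.73%), and the median was 0.40 and 0.55.

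Several proteases of mature mast cells and basophils were low in members yet higher than in comparison barcodes. Tpsb2, a tryptase, had 6 and 99 UMIs in members (1.8 and 16 CPM) against 0.12 and 0.088 CPM in comparison barcodes, and all 6 in the Usp18+/f-labelled library came from 1 barcode. Tpsab1, its close relative, had 17 and 43 UMIs in members, a log2 ratio of 1.72 (0.88 to 2.48) and 4.16 (3.39 to 4.97) over comparison barcodes. Mcpt4, the connective tissue chymase, stood at 24 and 31 CPM in members, at 7.46 and 2.98 CPM in comparison barcodes and at 287 and 468 CPM in Mcpt-high barcodes. At 3000 UMIs 5.86% and 3.96% of members held a Mcpt4 UMI, against 1.89% and 0.928% of comparison barcodes. Mcpt4 in members thus lay between the other classes. Mcpt8, a basophil protease, stood at 10.2 and 11.5 CPM in members against 0.789 and 0.74 CPM in comparison barcodes, and at 3000 UMIs 2.82% and 2.49% of members held a Mcpt8 UMI against 0.293% and 0.166%. Prss34, another basophil protease, had 4 and 9 UMIs in members and is not compared here. Il4, the cytokine that basophils and mast cells release, stood at 76.1 and 71 CPM in members, and its ratio to comparison barcodes was positive in both libraries. Mrgprb2, a receptor of connective tissue mast cells, had 9 and 91 UMIs, or 2.7 and 14.7 CPM against 0.103 and 0.352 CPM in comparison barcodes. Tpsg1, tryptase gamma, stood at 14.7 and 52 CPM in members against 1.9 and 1.64 CPM in comparison barcodes, a log2 ratio of 2.95 (2.43 to 3.45) and 4.99 (4.65 to 5.34), and was left out of the ranks because its mean over the 4 sums, at 17.6 CPM, was under 20 CPM. In the Usp18+/f-labelled library 1 barcode held 20.4% of the Tpsg1 UMIs of members.

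The mast cell list was described over the 9 of its 16 genes that reached 20 CPM, with the genes of the rule left out. Of these, 7 were at least 1.5-fold higher in both libraries (3.74% over all genes), none was lower (2.73%), and the median log2 ratio was 0.75 and 0.97. At 4000 to 8000 UMIs the median was 0.63 and 0.67. The summed level of the list was 4514 and 5805 CPM in members, 2220.4 and 2142 CPM in comparison barcodes and 10243 and 13421 CPM in Mcpt-high barcodes, so members lay between the other classes. Of 12 basophil genes, 6 reached 20 CPM, 3 were higher and none lower, with a median of 0.75 and 0.95. Both lists share genes and were chosen with earlier results of these data known.

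Cytokine receptor genes were led by Csf2rb2 (ENSMUSG00000071714, chromosome 15, 78282507 to 78305721), which stood at 88.1 CPM (78.3 to 98.8) and 161 CPM (152 to 172) in members against 23.1 CPM (21.9 to 24.4) and 37.8 CPM (36.3 to 39.5). Its log2 ratio was 1.93 (1.74 to 2.11) and 2.09 (1.98 to 2.20), and 1.02 (0.79 to 1.25) and 1.14 (0.99 to 1.29) at 4000 to 8000 UMIs. Csf2rb, which encodes the beta chain shared by the receptors for interleukin-3, interleukin-5 and GM-CSF and is a close relative of Csf2rb2, had ratios of 0.83 and 1.003, and reads of these near-identical genes may be split between them by the authors' counting. Kit, the stem cell factor receptor, stood at 155 CPM (142 to 169) and 215 CPM (203 to 227) against 91.9 CPM (89.5 to 94.4) and 87.9 CPM (85.5 to 90.4), a log2 ratio of 0.75 (0.62 to 0.88) and 1.29 (1.20 to 1.38). Il1rl1 had ratios of 0.77 and 0.96. Of 17 listed receptors, 6 reached 20 CPM, 4 were higher (3.74% over all genes) and none lower (2.73%), with a median of 0.76 and 0.98. Of 15 JAK-STAT feedback genes, 10 reached 20 CPM and none passed 1.5-fold in both libraries, with a median of 0.25 and 0.40.

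Other surface and metabolic genes among the highest were Slc7a8, an amino acid transporter, at 92 and 194 CPM against 29 and 48 CPM, and Pik3ip1, an inhibitor of PI3-kinase, with log2 ratios of 1.56 and 2.26. Fes, a tyrosine kinase of myeloid cells, had ratios of 1.66 and 2.03, Rnase6, a secreted ribonuclease, of 1.56 and 1.69, and Csrp3, a LIM domain protein best known from muscle, of 1.48 and 1.53. Ypel3 had ratios of 1.60 and 2.15 and Limd2 of 1.46 and 1.59. Cd34, a surface protein of progenitors and of mast cells, stood at 12 and 47.6 CPM against 5.61 and 12.9 CPM, a log2 ratio of 1.10 (0.58 to 1.57) and 1.88 (1.68 to 2.08). Cyp11a1, the side-chain cleavage enzyme of steroid synthesis, had ratios of 1.39 and 1.44. The integrin subunits of VLA-4 differed little, with log2 ratios of 0.21 and 0.46 for Itga4 and -0.041 and -0.27 for Itgb1.

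**Figure D2:**
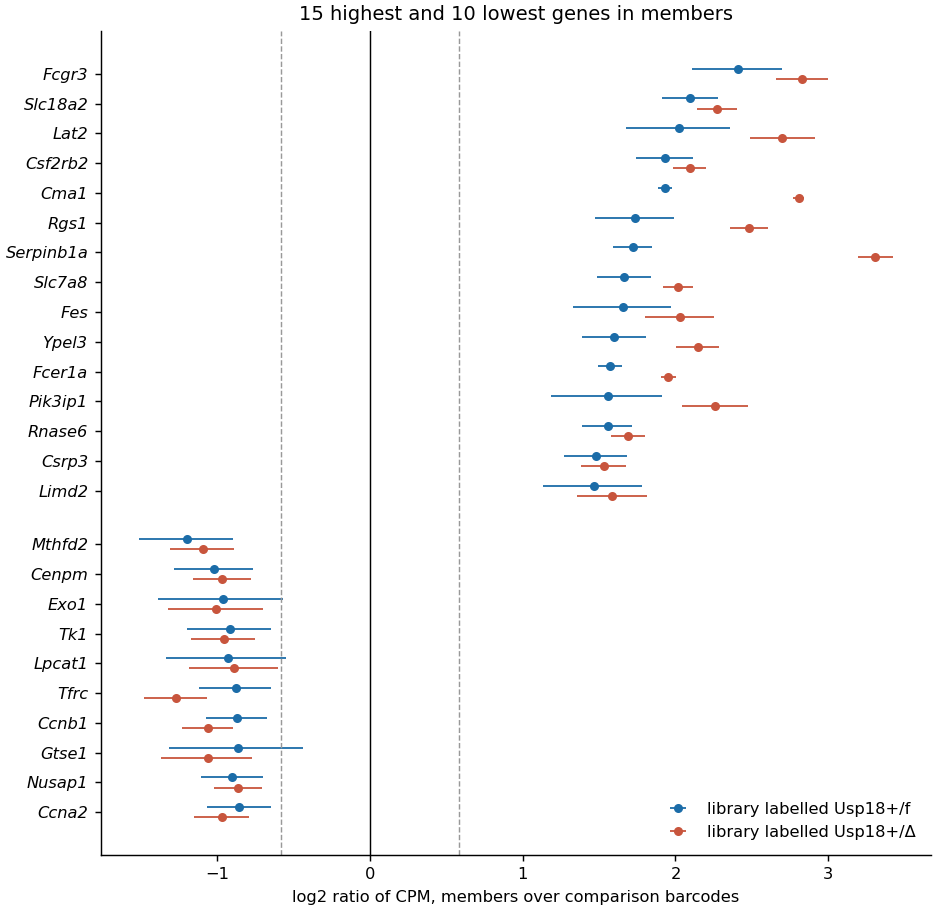
Log2 ratio of CPM of members over comparison barcodes for the 15 highest and 10 lowest genes, 1 point per library with its exact conditional 95% interval, and dashed lines at 1.5-fold. Fcgr3 tops the list (2.41 and 2.83), Serpinb1a and Cma1 show the widest gaps between the libraries, and Mthfd2, Cenpm and Exo1 are the lowest by the ratio nearer 0.

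Transcription factor genes had a smaller median ratio than the cytokine receptor genes. Of 31 listed, 20 reached 20 CPM, 5 were higher and 1 lower in both libraries (3.74% and 2.73% over all genes), with a median of 0.24 and 0.30. Mitf, a driver of mast cell granule genes, had log2 ratios of 0.70 (0.46 to 0.93) and 0.84 (0.68 to 1.004), and Gata2, a factor of progenitors and mast cells, of 0.45 (0.35 to 0.55) and 0.37 (0.29 to 0.45). Ikzf2, the factor Helios, had ratios of 0.99 and 1.15, Id2, an inhibitor of E proteins, of 0.96 and 1.37, and Id1, of the same family, of -0.64 and -0.64. Gata1, the factor of erythroid, megakaryocyte and mast cells, had ratios of -0.22 and -0.36, and Klf1, an erythroid factor, of -0.025 and -0.36. Of 20 erythroid genes, 16 reached 20 CPM, none was higher and 2 were at least 1.5-fold lower in both, with a median of -0.15 and -0.36. One of the lowest genes was erythroid in its best known role, Tfrc, the transferrin receptor, at 46.2 and 32.9 CPM against 84.9 and 79.3 CPM.

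Cell cycle genes were lower in members. The 10 lowest genes were Mthfd2, Cenpm, Exo1, Tk1, Lpcat1, Tfrc, Ccnb1, Gtse1, Nusap1 and Ccna2. Ccnb1, the mitotic cyclin B1, stood at 63.2 CPM (55 to 72.4) and 48.9 CPM (43.6 to 54.7) against 116 CPM (113 to 118) and 102 CPM (99.5 to 105), a log2 ratio of -0.87 (-1.08 to -0.67) and -1.06 (-1.23 to -0.89). Tk1, thymidine kinase, had ratios of -0.92 (-1.20 to -0.65) and -0.96 (-1.17 to -0.75), Exo1, a DNA repair exonuclease, of -0.97 and -1.005, and Cenpm, a centromere protein, of -1.02 and -0.97. Mthfd2, a mitochondrial enzyme of folate metabolism, had ratios of -1.20 and -1.09, and Lpcat1, an enzyme of phospholipid remodeling, of -0.93 and -0.89. Mki67 stood at 361 CPM (341 to 382) and 307 CPM (293 to 321) against 564 CPM (558 to 570.0) and 529 CPM (523 to 535), a log2 ratio of -0.64 (-0.73 to -0.56) and -0.79 (-0.85 to -0.72) and, at 4000 to 8000 UMIs, of -0.79 (-0.99 to -0.59) and -1.06 (-1.23 to -0.90). With at most 5% mitochondrial UMIs, which left 43 and 153 members, the direction turned in the Usp18+/f-labelled library, to 0.081 for Mki67 and 0.28 for Gtse1. Proliferation transcripts were thus lower but still present in members in the main setting.

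Of 52 G2/M genes, 50 reached 20 CPM, 30 were at least 1.5-fold lower in both libraries (2.73% over all genes) and none was higher (3.74%), with a median log2 ratio of -0.64 and -0.77. Of 40 S phase genes, 37 reached 20 CPM, 13 were lower and none higher, with a median of -0.52 and -0.71. The G2/M list summed to 7996 and 6333 CPM in members and 11406 and 10061 CPM in comparison barcodes, a log2 ratio of -0.51 (-0.53 to -0.49) and -0.67 (-0.68 to -0.65). The S phase list summed to 2729.9 and 2401 CPM against 3539 and 3595 CPM, a log2 ratio of -0.37 (-0.40 to -0.34) and -0.58 (-0.61 to -0.56). In Mcpt-high barcodes these sums were lower again, at 5469.5 and 4013 CPM and 1780.2 and 1646 CPM. Members were also shallower than comparison barcodes and their G2/M ratios at 4000 to 8000 UMIs were -0.52 (-0.56 to -0.49) and -0.61 (-0.64 to -0.58), and with at most 5% mitochondrial UMIs -0.12 and -1.28.

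The counts of the remaining lists were small and are set beside the 3.74% of all genes that were higher and the 2.73% that were lower. The progenitor list had the largest medians of the lists with at least 2 genes at 20 CPM, 0.88 and 1.07, but rests on 2 of 12 genes, Cd48, a surface glycoprotein of blood cells, and Mllt3, a transcriptional cofactor, both higher in members. NF-κB targets had a median of 0.44 and 0.61 over 4 of 24 genes, with 1 higher. Interferon-stimulated genes had a median of 0.26 and 0.42 over 26 of 44 listed genes, with 2 higher and none lower. Pyroptosis genes had a median of 0.11 and 0.17 over 11 genes, with 2 higher, among them Aim2, a sensor of cytosolic DNA, at log2 ratios of 0.66 and 0.63. Targets of p53 had a median of -0.26 and -0.26 over 9 genes, with 1 higher. No gene of the lipid synthesis, heat shock or eicosanoid lists passed 1.5-fold in both libraries, out of 12, 10 and 6 that reached 20 CPM. Of 8 integrin and adhesion genes 1 was higher, with a median of 0.26 and 0.42. The only gene of the monocyte list that reached 20 CPM was Ccr2, at log2 ratios of 1.06 and 1.27.

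**Figure D3:**
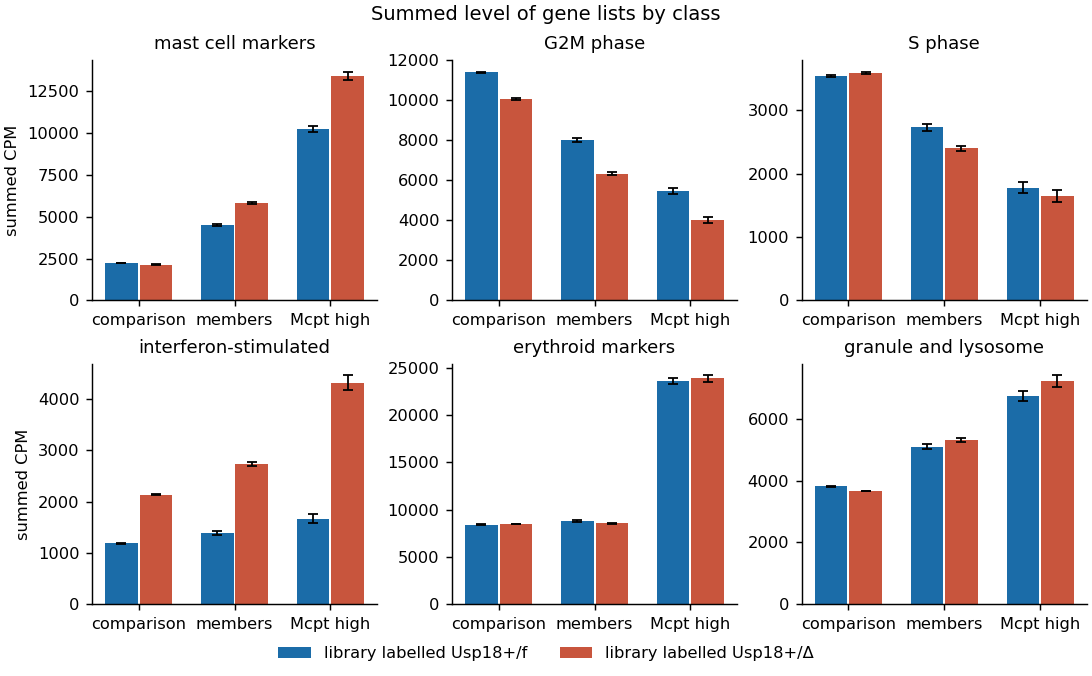
Summed level (CPM, exact Poisson 95% intervals) of 6 gene lists in comparison barcodes, members and Mcpt-high barcodes, 1 bar per library. Members lie between the other classes for the mast cell, granule, interferon-stimulated and cell cycle lists, while their erythroid sums (8819.8 and 8555 CPM) stay near those of comparison barcodes (8403 and 8451 CPM) and far under those of Mcpt-high barcodes (23627 and 23863 CPM).

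Within the members, granule and receptor genes were higher and cell cycle genes lower in bins of more Cpa3. Levels are given for the low, middle and high Cpa3 bins. Cma1 stood at 849, 1387 and 2415 CPM in the Usp18+/f-labelled library and at 989, 1519.9 and 4014 CPM in the Usp18+/Δ-labelled library. Fcer1a stood at 301, 558 and 625 CPM and at 446, 666 and 1308 CPM. Kit stood at 131, 151 and 229 CPM and at 145, 197 and 338 CPM. These genes were thus highest in the top bin of both libraries. Csf2rb2 stood at 39, 82.5 and 238 CPM and at 101, 143 and 271 CPM, Hdc at 430.4, 515 and 878 CPM and at 469, 628 and 1014 CPM, and Gata2 at 214, 265 and 434 CPM and at 204, 214 and 279.9 CPM. Gata2 in the top bin was lower in the Usp18+/Δ-labelled library, at a log2 ratio of -0.63 (-0.85 to -0.41). Because Cpa3 chose the bins and depth fell along them, these orders are descriptions.

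Cell cycle genes ran the other way. Mki67 stood at 443, 347 and 155 CPM in the Usp18+/f-labelled library and at 436, 274 and 150.1 CPM in the Usp18+/Δ-labelled library. Ccnb1 stood at 86.6, 54.7 and 13.8 CPM and at 68.7, 49.7 and 18.5 CPM. The summed G2/M list stood at 9108, 8066 and 4719.6 CPM and at 8115, 6042 and 3990 CPM, against 11406 and 10061 CPM in comparison barcodes. The top bin thus held about as little Mki67 in both libraries. The summed mast cell list stood at 3472, 4641 and 7212 CPM and at 3769, 5099 and 9619 CPM, which in the top bin came to 0.42 (0.37 to 0.46) on the log2 scale in the Usp18+/Δ-labelled library over the Usp18+/f-labelled library. Hbb-bt was also highest in the top bin, at 407, 695 and 1761 CPM and at 473, 1066 and 1320.2 CPM.

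**Figure D4:**
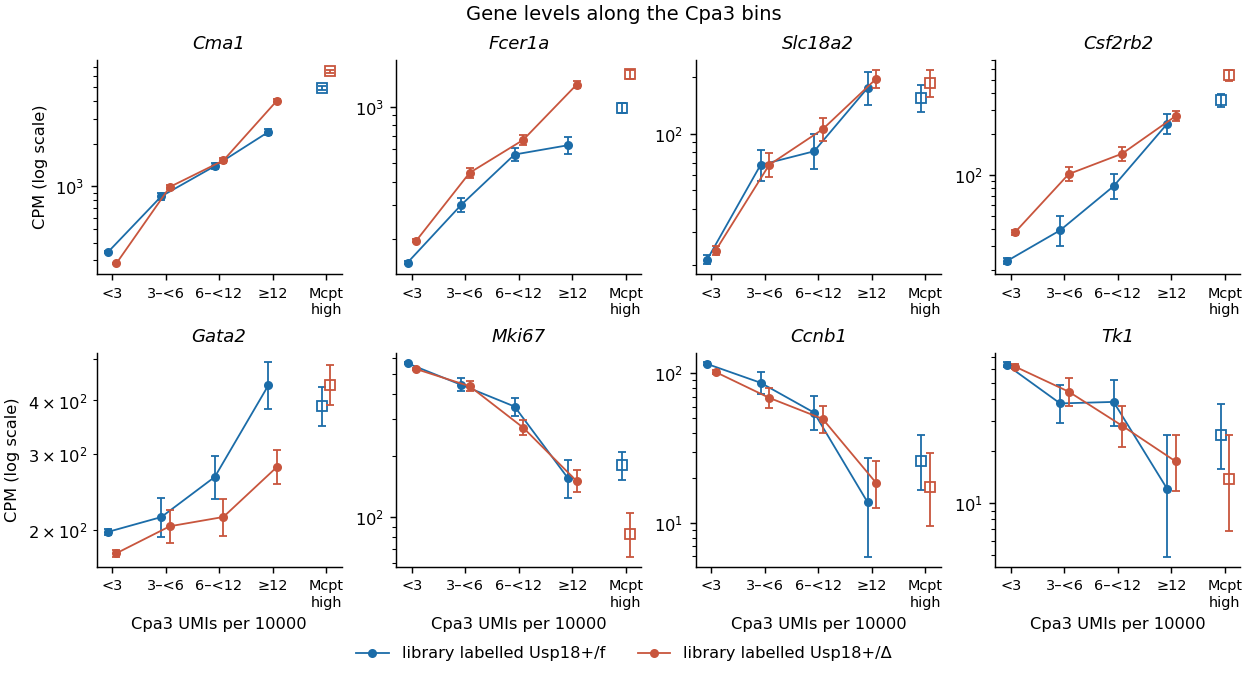
Levels (CPM, log axes, exact Poisson 95% intervals) of 8 genes in comparison barcodes (under 3 Cpa3 UMIs per 10000), in the low, middle and high Cpa3 bins of the members (filled points) and in Mcpt-high barcodes (open squares), by library. Cma1, Fcer1a, Slc18a2 and Csf2rb2 are higher in bins of more Cpa3, and Mki67 is lower (443, 347 and 155 CPM and 436, 274 and 150.1 CPM).

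Mcpt-high barcodes, which share the Cpa3 limit, held more Cma1, at 4918 and 6455 CPM, more Fcer1a, at 985 and 1480.2 CPM, and more Csf2rb2, at 353 and 540.2 CPM, than members. Serpinb1a there stood at 929 and 998 CPM against 176 and 205 CPM, and Hbb-bt at 4284 and 5407 CPM against 739 and 890.0 CPM. In members with at least 1 Mcpt1 or Mcpt2 UMI, Cma1 stood at 1725 and 2443 CPM, against 984 and 1793 CPM in members with none. Mcpt1 itself stood at 84.2 and 48.9 CPM in members and at 132 and 34.4 CPM in comparison barcodes, where the rule set no Mcpt limit and took in 315 and 91 barcodes at 10 or more per 10000. Without those barcodes, an alternative chosen after seeing the data, the members' log2 ratios were 1.45 and 1.496 for Mcpt1, 2.24 and 2.88 for Cma1 and 2.49 and 3.48 for Serpinb1a.

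The libraries were then compared within the members. Of 6081 genes that averaged 20 CPM or more in members, 118 were at least 1.5-fold higher in the Usp18+/Δ-labelled library (1.94%) and 30 at least 1.5-fold lower (0.493%). At 4000 to 8000 UMIs the counts were 154 and 65, after thinning to 3000 UMIs 308 and 198, and by the mean of per-cell CPM 212 and 85, so these counts depend on depth and averaging. With at most 5% mitochondrial UMIs, which left only 43 and 153 members, more genes were lower than higher, as given below. In the main setting the same genes gave 42 (0.691%) and 12 (0.197%) in comparison barcodes, whose sums rest on 56751801 to 58311787 UMIs against 3336370 to 6194375 and so vary less by counting. The median log2 ratio over these genes was -0.0072 in members and 0.0026 in comparison barcodes. The genes that were higher included interferon-stimulated genes. Genes entered by their mean over the members of both libraries, so a gene under 20 CPM in one library could enter through the other, and counts and ranks are descriptions.

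The 8 highest were Irf7, Isg15, Rtp4, Cd34, Oas3, Xaf1, Isg20 and Tpsg1. All of these but Isg15 were under 20 CPM in the Usp18+/f-labelled members and entered through the other library, so their rank is partly set by the limit. Irf7 (ENSMUSG00000025498, chromosome 7, 141262706 to 141266481), the factor that amplifies interferon production, stood at 7.19 CPM (4.61 to 10.7) and 51.2 CPM (45.7 to 57.1) in members, a log2 ratio of 2.83 (2.23 to 3.49) against 2.57 (2.38 to 2.76) in comparison barcodes. Isg15 stood at 22.5 CPM (17.7 to 28.2) and 150.5 CPM (141 to 160.4), a log2 ratio of 2.74 (2.40 to 3.10) against 2.37 (2.28 to 2.46). In the Usp18+/Δ-labelled library 1 barcode held 11.5% of the 932 Isg15 UMIs of members, and 304 members held at least 1. Rtp4, an interferon-induced chaperone, had ratios of 2.52 (1.89 to 3.22) in members and 2.96 (2.74 to 3.19) in comparison barcodes. For all 3 genes the intervals in the classes overlapped. Oas3, an antiviral oligoadenylate synthetase, had a ratio of 1.98 (1.60 to 2.37) in members, Xaf1, a pro-apoptotic interferon target, of 1.94 (1.44 to 2.49), and Isg20, an antiviral exonuclease, of 1.93 (1.40 to 2.49).

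Of 44 listed interferon-stimulated genes, 27 averaged 20 CPM or more over the members of both libraries and 19 were at least 1.5-fold higher in the Usp18+/Δ-labelled library, none lower (1.94% higher and 0.493% lower over all genes), with a median of 1.002 in members and 0.85 in comparison barcodes. Since genes such as Irf7 passed through the Usp18+/Δ-labelled library alone, these counts and the median are partly set by the limit. Summed with no such limit, the list stood at 1387 and 2735 CPM in members, 1185 and 2134 CPM in comparison barcodes and 1671 and 4322 CPM in Mcpt-high barcodes. At 3000 UMIs per barcode, barcodes with over 12 UMIs of the list, the 99th percentile of kept barcodes in the Usp18+/f-labelled library, made up 4 of 461 members (0.868%; 0.237 to 2.21) and 164 of 884 (18.6%; 16 to 21.3). Among comparison barcodes they made up 33 of 5809 (0.568%; 0.391 to 0.797) and 531 of 6032 (8.80%; 8.10 to 9.55). In the Usp18+/Δ-labelled library the share was thus larger among members than among comparison barcodes. Thinning left out 12 and 131 members and 396 and 132 comparison barcodes that were shallower, and whether those left out differ was not tested.

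Cd34 (ENSMUSG00000016494, chromosome 1, 194938819 to 194961279) stood at 12 CPM (8.57 to 16.3) and 47.6 CPM (42.3 to 53.4) in members, a log2 ratio of 1.99 (1.51 to 2.50) between the libraries, against 1.21 (1.02 to 1.40) in comparison barcodes. At 3000 UMIs, 3.25% and 12.7% of members held a Cd34 UMI, against 1.72% and 3.88% of comparison barcodes, and without thinning 7.61% and 21.7% against 4.4% and 9.96%. The ratio kept its size at 4000 to 8000 UMIs, at 1.83 (1.17 to 2.55). Tpsg1, tryptase gamma, stood at 14.7 CPM (10.9 to 19.4) and 52 CPM (46.5 to 58) in members, a log2 ratio of 1.82 (1.39 to 2.29) against -0.22 (-0.63 to 0.19) in comparison barcodes, and at 4000 to 8000 UMIs the ratio was 0.41 (-0.21 to 1.05). Nkg7, a granule membrane protein of cytotoxic lymphocytes, also differed among members, with a log2 ratio of 1.79 (1.33 to 2.28), and had 1.06 (0.88 to 1.24) in comparison barcodes.

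Of 16 listed mast cell genes, 10 averaged 20 CPM or more over the members of both libraries, and 2 of these were at least 1.5-fold higher in the Usp18+/Δ-labelled library and none lower (1.94% and 0.493% over all genes), with a median of 0.33 in members and -0.054 in comparison barcodes. Below that limit, Tpsb2 had a log2 ratio of 3.15 (1.98 to 4.63) and Mrgprb2 of 2.45 (1.46 to 3.62) between the members of the libraries, on the UMI counts given above. The 2 genes past the limit were named above, Fcer1a at a log2 ratio of 0.77 (0.68 to 0.85) and Cma1 at 0.62 (0.57 to 0.67), against 0.38 (0.34 to 0.42) and -0.26 (-0.29 to -0.23) in comparison barcodes. Since the Usp18+/Δ-labelled library held more members of the top Cpa3 bin, the members of the Usp18+/f-labelled library were also weighted to the bins of the other library, an alternative chosen after seeing the data. The ratios then were 0.68 for Fcer1a, 0.46 for Cma1 and 0.39 for Kit, whose pooled ratio was 0.47 (0.33 to 0.62). At 4000 to 8000 UMIs they were 0.59 (0.48 to 0.71), 0.34 (0.27 to 0.41) and 0.20 (-0.009 to 0.41), so the Kit interval then took in 0. Csf2rb2 had a ratio of 0.87 (0.68 to 1.07) in members and 0.71 (0.61 to 0.81) in comparison barcodes, Rgs1 of 1.57 (1.32 to 1.83) and 0.83 (0.70 to 0.96), and Cyp11a1 of 1.28 (1.18 to 1.38) and 1.22 (1.18 to 1.26).

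The 8 lowest were Hspa1a, Hspa1b, Fosb, Cdca7, Gemin2, Fignl1, Hist1h2ap and Car7. Hspa1a and Hspa1b, near-identical genes of the inducible heat shock protein HSP70 whose reads may be split between them, had log2 ratios of -3.40 and -2.80 in members and -2.86 and -2.06 in comparison barcodes. Fosb, an immediate early gene, had ratios of -1.01 and -0.78. These 3 genes were therefore lower in the Usp18+/Δ-labelled library in both classes. Cdca7, a MYC and E2F target, had a ratio of -0.87 (-1.20 to -0.55) in members and 0.0053 (-0.068 to 0.079) in comparison barcodes, and kept it at 4000 to 8000 UMIs, at -0.94 (-1.44 to -0.45). The other low genes had ratios of -0.78 (Gemin2, of the SMN complex), -0.77 (Fignl1, of homologous recombination), -0.77 (Hist1h2ap, a histone H2A) and -0.74 (Car7, a carbonic anhydrase) in members.

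Targets of p53 had a median library ratio of 0.33 in members and 0.44 in comparison barcodes over 9 genes, and 2 were at least 1.5-fold higher in members (1.94% over all genes), Cdkn1a, the cyclin-dependent kinase inhibitor p21, at 1.67 (1.26 to 2.10) and Ccng1, cyclin G1, at 0.69 (0.43 to 0.95). The S phase list had a median of -0.19 in members and 0.032 in comparison barcodes, and the G2/M list of -0.23 and -0.094. These medians are not set against depth or the Cpa3 bins here. The top Cpa3 bin, where the summed G2/M list was lowest, held 23.5% and 38.5% of members. At 4000 to 8000 UMIs the library ratios of Ccnb1 and Ccna2 in members turned positive, as given below. Lower cycling in members of the Usp18+/Δ-labelled library at like depth is therefore not concluded. Klf1 had a ratio of -0.50 (-0.67 to -0.34) in members and -0.16 (-0.21 to -0.12) in comparison barcodes. In bulk sums of a class, fewer expressing barcodes and less RNA per barcode cannot be told apart, and differences between the classes' ratios were not tested.

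**Figure D5:**
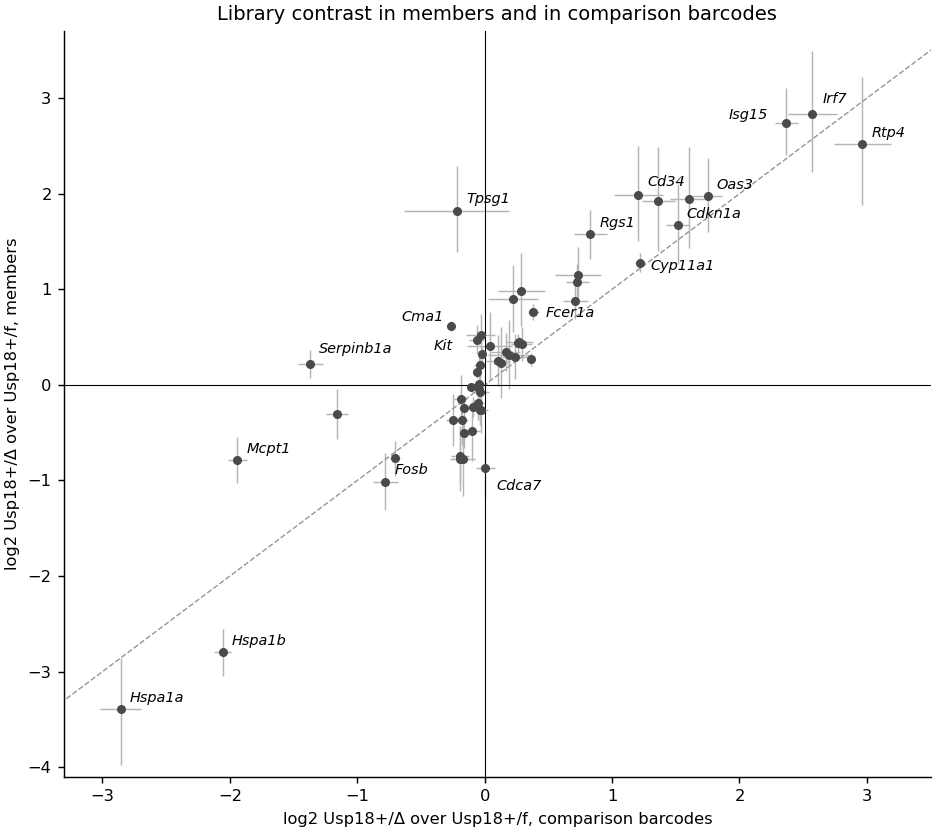
Log2 ratio of the Usp18+/Δ-labelled library over the Usp18+/f-labelled library in comparison barcodes (x axis) and in members (y axis), 1 point per named gene of at least 20 CPM with exact 95% intervals and a dashed line of equal ratios. Irf7, Isg15 and Rtp4 lie high in both classes, Cd34 and Tpsg1 lie higher in members (1.99 and 1.82) and Hspa1a and Hspa1b lie low in both.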

How the data were processed

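Single-cell 3′ libraries (10x Genomics V3 chemistry) of sorted leukemia cells were analysed, 1 per group. Per the file headers, the deposited counts are whole-number UMI counts per gene and barcode that the authors made with Cell Ranger 3.0.2, and per the submitters' processing notes mm10 and Seurat were used. The deposited barcodes are those already called as cells; 31053 genes are listed, of which 30934 matched GENCODE vM21 by identifier for the coordinates. No deposited annotation of cell types was used. A further item of the genotype that both groups share is not reported here.

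Barcodes were kept from 500 genes upward and up to 10% mitochondrial UMIs. UMIs were summed per library and class and scaled to CPM, with exact Poisson 95% intervals for levels, exact conditional intervals for ratios, Clopper-Pearson intervals for shares and score intervals for ratios of shares. These cover counting error only. With 1 library per group, no test and no p-value can be given. Gene counts use a mean of at least 20 CPM and a fold of 1.5. For shares of barcodes with a UMI, barcodes were thinned to 3000 UMIs with a fixed seed. Doublets were scored with Scrublet (scanpy 1.11.5, expected 6%), whose automatic threshold marked 0.0436% and 0.0270% of barcodes, under the 0.5% of a working call. Doublets were therefore kept, and removal above the 95th percentile was an alternative (4.23% and 4.04% of members lay above it, and 5.03% and 4.61% of comparison barcodes). The genes named were a fixed list, genes chosen by rank and examples from the lists. The 15 highest and 10 lowest in members were ranked by the ratio nearer 0. The 8 highest and 8 lowest between the libraries were ranked by their library ratio in members, among genes with at least 20 UMIs in members of both libraries together. Cpa3, Mcpt1, Mcpt2 and mitochondrial genes were left out of the ranks. In all, 12 alternatives were planned and 3 were added after seeing the data. The members, gene lists and rules were chosen with earlier results of these data known. Promoters came from RefSeq (GRCm38.p6). Python 3.11.15, numpy 2.4.6, scipy 1.17.1, pandas 2.3.3 and matplotlib 3.10.9 were used, and the functions were tested on simulated data.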

Additional observations from a re-analysis of the deposited data

Results flagged for a closer look

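In 4 of the named genes that averaged 20 CPM or more in members, the library ratio had opposite signs in members and in comparison barcodes, with intervals that left out 0 on both sides. The difference between the classes was not tested, since each library is 1 sample. Kit had a log2 ratio of the Usp18+/Δ-labelled library over the Usp18+/f-labelled library of 0.47 (0.33 to 0.62) in members and -0.064 (-0.12 to -0.0082) in comparison barcodes. Il1rl1, the interleukin-33 receptor, had 0.13 (0.072 to 0.20) and -0.063 (-0.086 to -0.04). Cma1, the chymase MCPT5, had 0.62 (0.57 to 0.67) and -0.26 (-0.29 to -0.23). Serpinb1a, a protease inhibitor, had 0.22 (0.075 to 0.36) and -1.37 (-1.47 to -1.27). Other values move with these. The comparison barcodes held 315 and 91 barcodes with Mcpt1 plus Mcpt2 at 10 or more per 10000, and without them Cma1 stood at 275 and 270 CPM there, a log2 ratio of -0.026, and Serpinb1a at 31.4 and 18.4 CPM, a ratio of -0.77. The members of the Usp18+/Δ-labelled library were shallower and held more of the top Cpa3 bin, where Cma1 and Kit were highest. At 4000 to 8000 UMIs the ratio in members was 0.20 for Kit, -0.021 for Il1rl1, 0.34 for Cma1 and -0.27 for Serpinb1a. The part of these values in the 4 differences was not tested further.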

How the results depend on the processing

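Settings were changed 1 at a time. The main values were a log2 ratio of the member share of 0.997, 226 genes higher and 165 lower in members, 118 genes higher and 30 lower in the Usp18+/Δ-labelled library, mast cell list medians of 0.75 and 0.97, summed S phase ratios of -0.37 (-0.40 to -0.34) and -0.58 (-0.61 to -0.56) and summed G2/M ratios of -0.51 (-0.53 to -0.49) and -0.67 (-0.68 to -0.65). With at most 5% mitochondrial UMIs, which left only 43 and 153 members and 973 and 494 comparison barcodes, the values were in that order 2.34, 496, 365, 1055, 1290, 1.13 and 1.86, -0.70 and -1.09, and -0.12 and -1.28, and the median library ratio of interferon-stimulated genes in members was 1.62. With a Cpa3 limit of 6 per 10000 they were 1.23, 414, 412, 195, 102, 0.97 and 1.42, -0.58 and -0.77, and -0.72 and -0.99. With each barcode thinned to 3000 UMIs before the rule, the counts were 359, 370, 308 and 198, the mast cell median in the Usp18+/Δ-labelled library 1.08, the S phase ratios -0.61 and -0.85 and the G2/M ratios -0.68 and -0.95. Members with no Mcpt1 or Mcpt2 UMI gave a share ratio of 1.24, 46 genes lower in the Usp18+/Δ-labelled library and a G2/M ratio of -0.55 in the Usp18+/f-labelled library. Over barcodes of 4000 to 8000 UMIs, chosen after seeing the data, the share ratio was 0.51, 113 genes were higher in members, 65 were lower in the Usp18+/Δ-labelled library, the mast cell median in that library was 0.67, the S phase ratios -0.45 and -0.66 and its G2/M ratio -0.61.

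The mean of per-cell CPM gave 287 genes lower in members, 212 and 85 in the library contrast, a mast cell median of 1.39 in the Usp18+/Δ-labelled library, S phase ratios of -0.53 and -0.78 and G2/M ratios of -0.64 and -0.89. Without the top 5% of doublet scores the S phase ratios were -0.41 and -0.62 and the G2/M ratios -0.57 and -0.75, and with median-of-ratios size factors -0.41 and -0.62 and -0.55 and -0.70. CPM without mitochondrial, ribosomal protein and hemoglobin genes gave 180 and 59 genes in the library contrast, a mast cell median of 1.14 in the Usp18+/Δ-labelled library and a G2/M ratio of -0.49 in the other. A filter of 5 CPM gave 428, 262, 392 and 163 genes and a mast cell median of 1.13 in the Usp18+/Δ-labelled library, a filter of 50 CPM 118, 80, 40 and 8 and 1.13, and a fold of 2 57, 1, 40 and 3. The gene counts thus depend on filter, fold and depth, while the share ratio, the mast cell medians and the cell cycle ratios kept their sign under every setting.

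Of the values for single genes, 1978 stayed within their main interval, 518 moved beyond it, and 25 whose main interval left out 0 changed sign, and the cause was not tested. With at most 5% mitochondrial UMIs the log2 ratio of members over comparison barcodes became 0.081 for Mki67, 0.28 for Gtse1, -0.78 for Oas3, -0.56 for Hspa1a and -0.026 for Fosb in the Usp18+/f-labelled library, and -1.25 for Mcpt1, -0.57 for Mcpt2, -0.046 for Hbb-bt and -0.16 for Fosb in the other, and the library ratio in members became 1.28 for Mcpt2, -0.0022 for Itga4 and 0.24 for Pcna. Over barcodes of 4000 to 8000 UMIs the ratio to comparison barcodes in the Usp18+/Δ-labelled library became -0.27 for Mcpt1 and -0.60 for Hbb-bt, and the library ratio became -0.21 for Hbb-bt, -0.021 for Il1rl1, -0.27 for Serpinb1a, 0.25 for Ccnb1 and 0.37 for Ccna2. After thinning, the library ratio became -0.41 for Itga2b, -0.082 for Serpinb1a and 0.052 for Ccnb1, and with weighting to the Cpa3 bins, chosen after seeing the data, -0.063 for Serpinb1a. In the Usp18+/f-labelled library, Mcpt1 stood at 1.45 against comparison barcodes under the Mcpt limit, also chosen after seeing the data, and Hbb-bt at -0.072 in members with no Mcpt UMI.

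No paired analysis was possible because cells of 3 mice were pooled into 1 library per group. All intervals cover counting error only, and a difference between the libraries cannot be told apart from a difference between the pools, the captures or the agents given. Members hold 3336370 and 6194375 UMIs, so genes under about 20 CPM rest on few UMIs, and in single barcodes the rule itself can turn on 2 Cpa3 UMIs. Barcodes near the limits can change class by counting alone.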

Other observations

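Barcodes that the filters left out show the same direction with wide intervals. Of 395 and 427 such barcodes, 22 (5.57%; 3.52 to 8.31) and 39 (9.13%; 6.57 to 12.3) met the Cpa3 and Mcpt limits of the members, a log2 ratio of 0.71 (-0.0044 to 1.44). Cma1 stood at 2418 and 2579 CPM in them, and Isg15, the interferon-induced ubiquitin-like protein, at 27.7 and 241 CPM. Their median mitochondrial share was 10.9% and 11.0%, just above the limit of 10%.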
